A study of Mus musculus with 16 samples.

Results

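A set of 9 genes of the B cell receptor and the B cell lineage was followed in homogenised lungs of female mice: Cd79a, Cd79b, Ms4a1, Cr2, Fcer2a, Blk, Pou2af1, Spib and Pax5. They were chosen by name, as the array probes whose gene name equals one of these symbols, which gave 12 probes of 9 genes among the 25675 genes tested. All 9 genes passed the filter on dim probes, with 11 of the 12 probes. Levels are the log2 signal of a probe minus the 75th percentile of all probes on the same array, so that 0 is the level of that percentile. Levels of different genes come from different probes and are not set against each other. The summed signals of gene lists given below are an exception. They add the linear signals of different probes, so the brightest probes weigh most in them.

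A B cell senses antigen through a membrane immunoglobulin that is coupled to the signalling chains Cd79a and Cd79b, whose phosphorylation by Src-family kinases such as Blk starts the signal inside the cell. The transcription factor Pax5 holds the B cell identity, while Spib and the coactivator Pou2af1 act in mature B cells and in the germinal centre response. In the lung, B cells are a minority of the leukocytes and can gather in lymphoid aggregates around airways and vessels. Pou2af1 is also made by plasma cells, Spib by plasmacytoid dendritic cells and Cr2 by follicular dendritic cells. In bulk lung RNA, fewer cells of a type and less RNA per cell cannot be told apart.

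The 16 arrays, 1 per sample, hold 4 samples of 12-month-old ARF-DTR mice given diphtheria toxin (DT), 4 of 12-month-old ARF-DTR mice given the carrier PBS, 4 of untreated 2-month-old ARF-DTR mice, 2 of 12-month-old wild type mice given DT and 2 of 12-month-old wild type mice given PBS. Injections were intraperitoneal, 2 weeks apart over 1 month, with a DT dose of 50 microgram per kg. ARF-DTR mice carry a receptor for DT as a transgene. As background, it is driven by the promoter of the tumour suppressor Arf, which is active in senescent cells, and DT kills cells that make the receptor. The labels do not list the cells that express it, and they give wild type mice at 12 months only. The series was set up to follow genes tied to senescent cells in adult lung, with wild type mice as the check on DT in the absence of the receptor. For the wild type samples the free descriptions go against the other labels: DT is named for PBS replicate 1 and for neither DT sample. Titles, source names and treatments were followed, and values of wild type samples rest on them. The younger mice were untreated, so age and PBS injection cannot be told apart.

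The 75th percentile of the signal ran from 613 to 1088 intensity units over the arrays, with 873 to 1088 on slide 1 and 613 to 725 on slide 2. Probes well above background made up 61.7 to 64.7% on DT-treated ARF-DTR arrays. On wild type arrays they made up 55.6 to 60.1%, lowest on wild type DT replicate 1. Whether this bears on the genotype comparisons was not tested. The lung genes Sftpc and Sftpb, which encode surfactant proteins, and Scgb1a1, a club cell product, were well above background on all 16 arrays. On slide 1 lay the ARF-DTR samples with PBS and those of 2 months, and on slide 2 the ARF-DTR samples with DT together with the wild type ones. Array row 1 held the 2-month samples on slide 1 and the DT-treated ARF-DTR samples on slide 2. Array row 2 held the PBS-treated ARF-DTR samples on slide 1 and the wild type samples on slide 2. Pairs of arrays differed, as a median over genes of the absolute log2 difference, by 0.147 inside groups, by 0.176 across groups on 1 slide and by 0.267 across slides (medians over pairs). A difference between groups of different slides therefore cannot be told apart from a difference between slides. Likewise, a difference between groups in different array rows of 1 slide cannot be told apart from a difference between rows. The labels do not say that replicates of a group are separate mice, so a p-value here is set against a spread between samples that may be technical.

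On build mm9, per the annotation in the array files, the probe used for Cd79a lies at chr7:25686823-25686882 on the plus strand and that for Cd79b at chr11:106172780-106172839 on the minus strand. The Ms4a1 probe is at chr19:11325367-11325426, the Cr2 probe at chr1:196965532-196965591 and the Fcer2a probe at chr8:3682343-3682402, all on the minus strand. Blk is read by a probe spanning chr14:63997333-63998470 on the minus strand, which is 1138 bases for an oligonucleotide of about 60 bases. The Pou2af1 probe lies at chr9:51048121-51048180 on the plus strand. Spib is read at chr7:51781392-51781451 and Pax5 at chr4:44658421-44658480, both on the minus strand. Exon and UTR positions of these probes were not looked up, since no mm9 annotation was used here.

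The stretches upstream of the start sites of Spib and Pou2af1, the genes with the smallest adjusted p in the age comparison, and of Cd79a are shown with motifs that B cell transcription factors read. They are the 250 bases before the RefSeq start on GRCm38.p6, written 5′ to 3′ on the strand of the gene, and capitals mark the motif matches.
Spib, chr7:44532072-44532321, minus strand: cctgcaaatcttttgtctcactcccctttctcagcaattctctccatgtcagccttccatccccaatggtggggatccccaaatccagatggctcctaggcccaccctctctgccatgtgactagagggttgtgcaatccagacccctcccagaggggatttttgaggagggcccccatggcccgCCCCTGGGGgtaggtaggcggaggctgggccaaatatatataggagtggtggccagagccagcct
Pou2af1, chr9:51213440-51213689, plus strand: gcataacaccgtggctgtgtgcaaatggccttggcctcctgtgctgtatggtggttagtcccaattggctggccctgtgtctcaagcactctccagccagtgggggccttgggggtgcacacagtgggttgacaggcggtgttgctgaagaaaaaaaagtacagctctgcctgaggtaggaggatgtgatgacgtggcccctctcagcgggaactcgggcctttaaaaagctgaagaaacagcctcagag
Cd79a, chr7:24897247-24897496, plus strand: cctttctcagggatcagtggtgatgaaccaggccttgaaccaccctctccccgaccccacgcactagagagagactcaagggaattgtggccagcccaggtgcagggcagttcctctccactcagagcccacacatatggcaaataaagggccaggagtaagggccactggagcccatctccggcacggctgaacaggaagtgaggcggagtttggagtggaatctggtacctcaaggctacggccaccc
The motifs searched on both strands were the octamer ATGCAAAT, read by Oct factors together with Pou2af1, the ETS site GAGGAAGT, read by PU.1 and Spib, and the EBF palindrome CCCNNGGG. RefSeq gave 8 starts for 6 of the 9 genes, with no entry for Ms4a1, Cd79b and Blk in the table used. The octamer and the ETS site had 0 matches in these 8 windows, while 1.6% and 2.44% of all 32851 windows hold one. The EBF letters matched in 1 of the 8 windows, that of Spib, against 11.8% of all windows. There the overlapping matches CCCCTGGG, 65 to 58 bases before the start, and CCCTGGGG, 64 to 57 bases before it, form the capitals above. A match is a match of letters only, and a site that departs from these letters is not found, so a window without capitals may still hold one.

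The signalling chain Cd79a had log2 levels of 1.84, 1.35, 1.45 and 1.69 in DT-treated ARF-DTR lungs and 2.04, 1.45, 2.35 and 1.97 in PBS-treated ARF-DTR lungs. At 2 months its levels were 1.31, 1.45, 1.36 and 1.23, while wild type lungs had 1.80 and 2.32 with DT and 2.43 and 2.25 with PBS. The 2-month samples lay close together at the bottom, and PBS replicate 2 lay just above the highest of them. Its partner Cd79b had 4.04, 3.46, 3.98 and 3.96 in DT-treated ARF-DTR lungs and 3.88, 3.50, 4.28 and 3.98 in PBS-treated ARF-DTR lungs. At 2 months Cd79b had 3.58, 3.66, 3.49 and 3.31, and wild type lungs had 4.24 and 4.44 with DT and 4.79 and 4.61 with PBS. For Cd79b both wild type PBS samples were above every other array.

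Ms4a1, which encodes the surface protein CD20, had 2.62, 1.91, 2.78 and 2.61 in DT-treated ARF-DTR lungs and 2.78, 2.23, 3.03 and 2.82 in PBS-treated ARF-DTR lungs. Its 2-month levels were 1.97, 2.28, 1.97 and 1.85, and wild type lungs had 2.68 and 3.07 with DT and 3.14 and 3.25 with PBS. Replicate 2 of both 12-month ARF-DTR groups fell within the 2-month range, and the other 12-month samples lay above it. Cr2, the complement receptor CD21 that lowers the threshold of the B cell receptor, had 0.37, 0.51, 0.80 and 0.76 with DT and 1.12, 0.60, 1.38 and 0.84 with PBS in 12-month ARF-DTR lungs. At 2 months Cr2 had 0.37, 0.52, 0.11 and 0.27, while wild type lungs had 0.75 and 1.74 with DT and 1.53 and 1.26 with PBS. Here every 12-month PBS sample was above every 2-month sample, and the wild type DT samples lay farther apart than the samples of any other group.

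Fcer2a, the low-affinity IgE receptor CD23 of mature B cells, had -0.98, -1.12, -0.97 and -1.08 with DT and -1.07, -0.95, -0.12 and -0.62 with PBS in 12-month ARF-DTR lungs. Its 2-month levels were -0.93, -0.85, -0.74 and -0.99, and wild type lungs had -0.33 and -0.24 with DT and 0.02 and -0.39 with PBS. All ARF-DTR samples except PBS replicate 3 were below the 4 wild type samples, and the DT-treated ones overlapped the 2-month ones. The kinase gene Blk had -2.39, -2.98, -2.75 and -2.46 with DT and -2.38, -2.70, -2.14 and -2.52 with PBS in 12-month ARF-DTR lungs. At 2 months Blk had -3.15, -2.94, -2.90 and -3.43, while wild type lungs had -2.60 and -2.08 with DT and -1.92 and -2.09 with PBS. Each 12-month PBS sample exceeded each 2-month sample for Blk.

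Pou2af1, the coactivator of Oct factors, had 2.27, 1.92, 2.16 and 2.45 with DT and 2.42, 1.06, 2.26 and 1.96 with PBS in 12-month ARF-DTR lungs. Its 2-month levels were 0.59, 0.96, 0.71 and 0.49, and wild type lungs had 2.27 and 2.46 with DT and 1.69 and 2.00 with PBS. All 12 samples of 12-month lungs were above the 4 samples of 2-month lungs, with PBS replicate 2 closest to them. Spib, an ETS transcription factor, had 1.08, 0.88, 0.90 and 1.03 with DT and 1.84, 1.26, 1.80 and 1.45 with PBS in 12-month ARF-DTR lungs. At 2 months Spib had 0.89, 1.02, 0.63 and 0.64, and wild type lungs had 0.88 and 1.52 with DT and 1.29 and 1.31 with PBS. The PBS-treated ARF-DTR samples were above both the DT-treated and the 2-month samples, and those last groups overlapped.

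Pax5 was dim. Its probe was well above background on 12 of the 16 arrays, namely 2 of 4 DT-treated, 3 of 4 PBS-treated and 4 of 4 2-month ARF-DTR arrays, 1 of 2 wild type DT arrays and 2 of 2 wild type PBS arrays. Its levels were -5.89, -5.75, -5.41 and -5.53 with DT and -5.40, -5.51, -5.04 and -5.24 with PBS in 12-month ARF-DTR lungs, and -5.42, -5.56, -5.06 and -5.33 at 2 months. Wild type lungs had -5.39 and -4.98 with DT and -4.53 and -4.67 with PBS. The wild type PBS samples were above all others for Pax5 too, and a second Pax5 probe was well above background on 0 arrays.

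**Figure D1:**
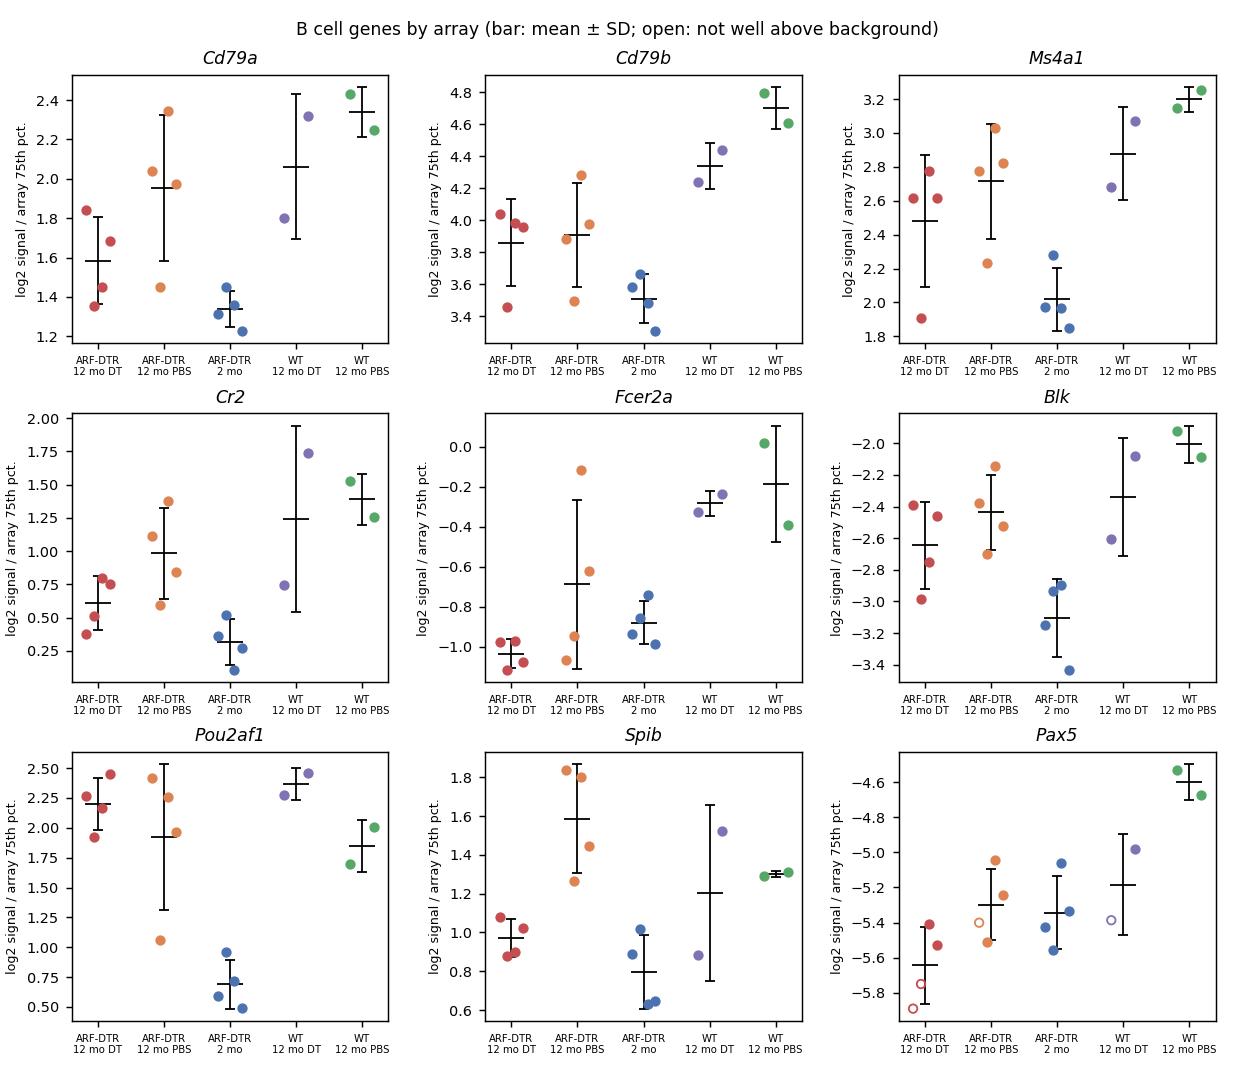
Log2 signal relative to the array's 75th percentile for each of the 9 genes, with 1 point per array, horizontal and vertical bars for mean and SD of each group, and open points for arrays where the probe was not well above background. For Pou2af1 the 2-month points, at 0.49 to 0.96, lie below all 12-month points, while for Cd79b and Pax5 the wild type PBS points are the highest.

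The order of the group means was the same for Cd79a, Cd79b, Ms4a1, Cr2 and Blk, with wild type PBS highest, then wild type DT, ARF-DTR PBS, ARF-DTR DT and the 2-month group lowest. For Ms4a1 those means were 3.20 ± 0.075, 2.88 ± 0.27, 2.72 ± 0.34, 2.48 ± 0.39 and 2.02 ± 0.19 in that order (SD, n = 2, 2, 4, 4 and 4). For Cd79a they were 2.34 ± 0.13, 2.06 ± 0.37, 1.95 ± 0.37, 1.58 ± 0.22 and 1.34 ± 0.092. Neighbours in this order overlapped for Cd79a, Cr2 and Blk, and for Cd79b and Ms4a1 the wild type groups were the only neighbours that did not. Fcer2a and Pax5 had the DT-treated ARF-DTR group lowest, at -1.04 ± 0.073 and -5.64 ± 0.22, and the 2-month group next, at -0.88 ± 0.11 and -5.34 ± 0.21. Among their neighbours, those that did not overlap were the wild type groups for Pax5.

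Pou2af1 and Spib had orders of their own. Pou2af1 was highest in wild type DT lungs at 2.37 ± 0.13, followed by ARF-DTR DT at 2.20 ± 0.22, ARF-DTR PBS at 1.92 ± 0.61, wild type PBS at 1.85 ± 0.22 and the 2-month group at 0.69 ± 0.20. The step to the 2-month group was the one step without overlap. Spib was highest in ARF-DTR PBS lungs at 1.59 ± 0.28, followed by wild type PBS at 1.30 ± 0.015, wild type DT at 1.20 ± 0.45, ARF-DTR DT at 0.97 ± 0.099 and the 2-month group at 0.80 ± 0.19, each overlapping the next. All these orders set arrays of both slides side by side.

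At 12 months with PBS, against 2 months, the log2 difference was above 0 for 9 of the 9 genes. The arrays of these groups shared a slide but lay in different array rows. Pou2af1, Spib and Blk rose, by 2.35-fold, 1.73-fold and 1.59-fold. These 3 calls of 9 genes compare with 6.15% of all genes called in either direction and 2.73% called higher, in a limma fit with Benjamini-Hochberg adjustment over all genes. The median log2 difference was 0.67 over the 9 genes and -0.03 over all genes. In 5 of the 9 genes, Pou2af1, Spib, Blk, Cd79a and Cr2, every 12-month PBS array was above every 2-month array, as for 5.02% of all genes.

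The log2 difference of Pou2af1 was 1.23 ± 0.24 (SE, adjusted p = 0.00909), that of Spib 0.79 ± 0.15 (adjusted p = 0.0092) and that of Blk 0.67 ± 0.17 (adjusted p = 0.0364). Ms4a1, Cd79a and Cr2 had similar differences that missed the threshold, 0.70 ± 0.20 for Ms4a1 (adjusted p = 0.0564), 0.62 ± 0.17 for Cd79a (adjusted p = 0.0533) and 0.67 ± 0.21 for Cr2 (adjusted p = 0.08). Cd79b differed by 0.40 ± 0.16 (adjusted p = 0.18), Fcer2a by 0.19 ± 0.17 (adjusted p = 0.572) and Pax5 by 0.04 ± 0.14 (adjusted p = 0.903). Thus 7 of the 9 genes had an unadjusted p under 0.05. A second probe was kept for Cd79a and Cr2, and it differed by 0.39 ± 0.14 for Cd79a and by 0.56 ± 0.23 for Cr2, the same direction at a smaller size.

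PBS replicate 2 had the lowest level of its group in 8 of the 9 genes. Without it, Cd79a (0.78, adjusted p = 0.00772), Ms4a1 (0.86, adjusted p = 0.0176) and Cr2 (0.80, adjusted p = 0.0454) passed as well, and 6 of the 9 genes were called. The call of Blk was lost without PBS replicate 1, 3 or 4 and without 2-month replicate 1, 2 or 4, with adjusted p between 0.0569 and 0.105, and after normexp background correction (0.42, adjusted p = 0.0542). The calls of Pou2af1 and Spib held without any single array, but in a fit of these groups alone Spib (adjusted p = 0.0326) was the 1 call, with Pou2af1 at adjusted p = 0.0532 and Blk at 0.0563.

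Of 24 other B cell surface and lineage genes tested, 5 rose and 0 fell at 12 months, with a median log2 difference of 0.43. Of the 19 that did not pass, Ebf1 (-0.25 ± 0.094), Foxo1 (-0.19 ± 0.11), Bach2 (-0.14 ± 0.14) and Cd81 (-0.04 ± 0.06) had differences below 0. Among the risers were Ly6d, a surface marker of committed B cells (0.72 ± 0.16, adjusted p = 0.0206), the follicle-homing receptor Cxcr5 (0.65 ± 0.15, adjusted p = 0.0231), the tetraspanin Cd37 (0.41 ± 0.10, adjusted p = 0.0326) and Pou2f2, the Oct factor that Pou2af1 assists. Pou2f2 differed by 0.52 ± 0.14 (adjusted p = 0.0407). Among 20 genes of B cell receptor signalling, 3 rose and 0 fell, with a median of 0.16. These were Syk, the kinase recruited to the phosphorylated chains (0.48 ± 0.066, adjusted p = 0.00104), the adaptor Blnk (0.57 ± 0.13, adjusted p = 0.0192) and the exchange factor Vav1 (0.25 ± 0.068, adjusted p = 0.0487). Of other Src-family kinases, Lyn differed by 0.00 ± 0.08 and Fyn by -0.19 ± 0.077. Rasgrp3 (-0.11 ± 0.099), Bcl10 (-0.05 ± 0.062), Inpp5d (-0.02 ± 0.12) and Swap70 (-0.01 ± 0.079) were below 0 as well, and none of these passed. The signalling list is not restricted to B cells.

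The other cell types that make Pou2af1, Spib or Cr2 were read through their own lists. Of 10 plasma cell genes, 5 rose and 0 fell at 12 months, with a median log2 difference of 0.55, among them the joining chain gene Jchain (4.87 ± 0.53) and Mzb1 (2.10 ± 0.42). The summed signal of the plasma cell genes was 7689 to 14751% of the array's 75th percentile in 12-month PBS lungs and 6593 to 7154% in 2-month lungs. Xbp1, with log2 levels of 5.68 to 6.25 over the 16 arrays, weighs heavily in this sum. Of 10 plasmacytoid dendritic cell genes, 0 rose and 0 fell by limma, with a median of -0.11, and their summed signal was 17221 to 18899% with PBS at 12 months and 15968 to 20574% at 2 months. Siglech, a defining marker of these cells, differed by -0.09 ± 0.06. Its probe had log2 levels of 6.75 to 7.05 over the 16 arrays, the highest of the list, and so weighs most in that sum. Whether so bright a probe reads these cells alone was not tested. Of 11 tested genes of germinal centres and follicular dendritic cells, 1 rose, the B cell chemoattractant Cxcl13 (2.31 ± 0.38), with a median of 0.30. In that list S1pr2 (-0.26 ± 0.095) and Ccr7 (-0.14 ± 0.21) were below 0 and did not pass. The pan-leukocyte genes had 1 riser of 8, Vav1, with a median of 0.26 and a summed signal of 9764 to 12433% at 12 months against 8126 to 10287% at 2 months. Of 10 lung parenchyma genes 0 rose and 3 fell, with a median of -0.09. The part of these lists in the differences of the 9 genes was not tested.

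**Figure D2:**
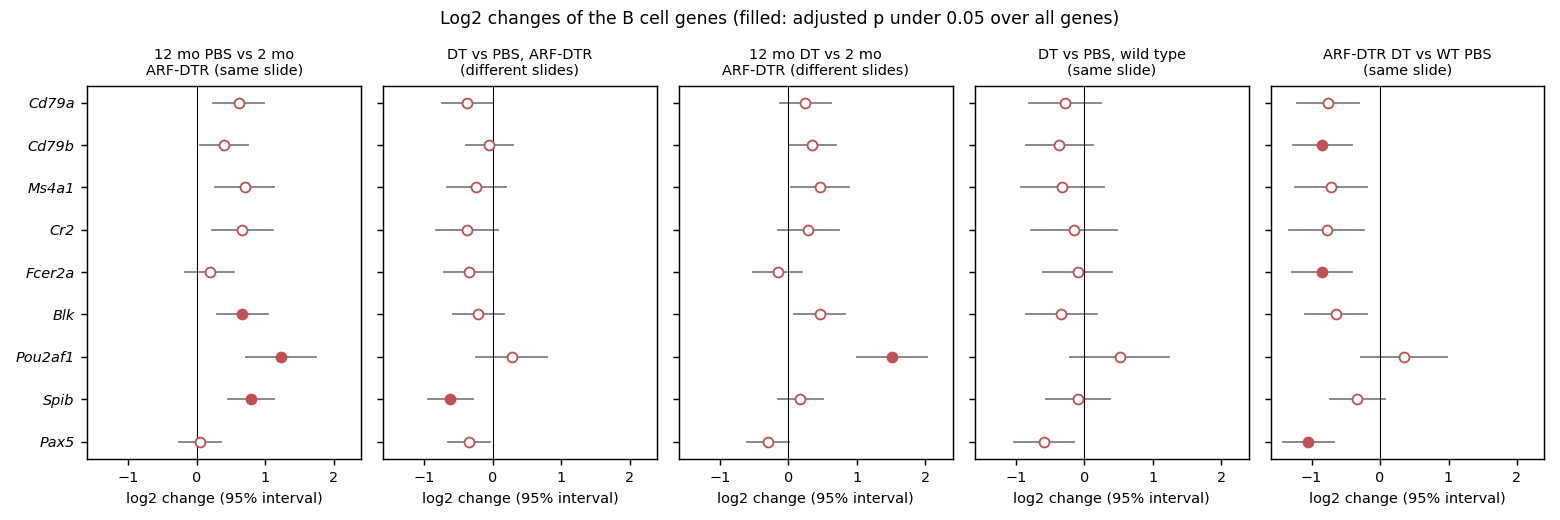
Log2 differences of the 9 genes in 5 comparisons, with 95% confidence intervals as bars, filled points where the adjusted p over all genes is under 0.05, and the slides named above each panel. In the comparison of 12-month PBS with 2-month lungs all 9 points lie above 0, and for DT-treated ARF-DTR against wild type PBS lungs 8 of 9 lie below 0.

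DT-treated ARF-DTR lungs were set against PBS-treated ones to read what DT does in mice with the transgene. Spib fell, by 1.53-fold, with a log2 difference of -0.62 ± 0.15 (limma, adjusted p = 0.0102), and every DT array was below every PBS array. This was 1 call of 9 genes, while 29.2% of all genes were called in this comparison, which runs across slides. The median of the 9 genes was -0.35 and that of all genes 0.00. Cd79a differed by -0.37 ± 0.17, Cr2 by -0.37 ± 0.21, Fcer2a by -0.35 ± 0.17, Pax5 by -0.35 ± 0.14, Ms4a1 by -0.24 ± 0.20, Blk by -0.21 ± 0.17 and Cd79b by -0.05 ± 0.16, none of which passed. The direction of Pax5 turned after normexp background correction, with a call (0.27, adjusted p = 0.0156), and with array weights it passed as a fall (-0.38, adjusted p = 0.0474). The second probe of Cd79a differed by -0.12 ± 0.14 and that of Cr2 by -0.39 ± 0.23. Pou2af1 was the 1 gene with a difference above 0, of 0.28 ± 0.24 (adjusted p = 0.403), and its DT samples overlapped its PBS samples. Without any single array the call of Spib held, with values between -0.72 and -0.44 over all settings tried. Cd79a passed without PBS replicate 2 (-0.54, adjusted p = 0.0215) and Fcer2a without PBS replicate 1 (-0.47, adjusted p = 0.0487).

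In the same comparison 9 of the 24 other B cell genes fell and 0 rose, with a median of -0.32. Differences above 0 that did not pass were those of Cd72 (0.22 ± 0.24), Ly6d (0.19 ± 0.16), Tnfrsf13b (0.16 ± 0.18) and Cd81 (0.14 ± 0.06). Cd22, an inhibitory coreceptor, differed by -0.36 ± 0.084 (adjusted p = 0.00736), the transcription factor Bcl11a by -0.58 ± 0.14 (adjusted p = 0.00864), the Fc receptor-like gene Fcrl5 by -0.44 ± 0.11 (adjusted p = 0.00969) and Ikzf3, which encodes Aiolos, by -0.56 ± 0.14 (adjusted p = 0.00982). Over all genes in this comparison, 3451 of 25675 were called lower and 4057 higher. Plasma cell genes had 4 risers and 1 faller of 10, and pan-leukocyte genes had 4 risers of 8 with a summed signal of 11556 to 15247% with DT against 9764 to 12433% with PBS. Of the plasmacytoid dendritic cell genes 2 rose and 2 fell. Of 10 lung parenchyma genes 5 rose and 0 fell, with a median of 0.31, among them Sftpc (0.50 ± 0.089) and Scgb1a1 (0.37 ± 0.081). Their summed signal was 146474 to 167194% with DT against 112067 to 126349% with PBS, without overlap. These lists changed across slides as well, and their part in the difference of Spib was not tested.

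In wild type lungs, which lack the receptor, DT and PBS samples shared slide 2. None of the 9 genes passed, and 0.179% of all genes did by limma, while 1 of the 9, Pax5, had an unadjusted p under 0.05 (-0.58 ± 0.20, adjusted p = 0.238). Of the 9 differences 8 were below 0, with a median of -0.28 over the 9 genes and -0.02 over all genes. Cd79b differed by -0.36 ± 0.23, Blk by -0.33 ± 0.24 and Ms4a1 by -0.32 ± 0.28. For Cd79a the difference was -0.28 ± 0.24, for Cr2 -0.15 ± 0.29 and for Fcer2a -0.10 ± 0.23. Spib differed by -0.10 ± 0.22, with a 95% interval of -0.57 to 0.37, and Pou2af1 by 0.52 ± 0.34, with an interval of -0.21 to 1.24. With 2 samples a group the intervals are wide. The genotype difference in the DT response was tested as an interaction, in which 0 of the 9 genes passed against 2.11% of all genes, with 0 at an unadjusted p under 0.05. For Spib this difference was -0.52 ± 0.27 (adjusted p = 0.279), so a fall with DT that differs between genotypes was not shown. The ARF-DTR part of the interaction runs across slides and the wild type part does not. A difference between slides is therefore not removed from the interaction.

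DT-treated 12-month ARF-DTR lungs were also set against 2-month lungs, again across slides. Pou2af1 rose by 2.85-fold, with a log2 difference of 1.51 ± 0.24 (limma, adjusted p = 0.000551), and this call held without any single array. It was the 1 call of 9 genes, where 30.7% of all genes were called. Blk differed by 0.46 ± 0.17 (adjusted p = 0.059), Ms4a1 by 0.46 ± 0.20 (adjusted p = 0.0955) and Cd79b by 0.35 ± 0.16 (adjusted p = 0.118). Without DT replicate 2, the lowest of its group in 7 of the 9 genes, these genes passed too, with 0.57 for Blk (adjusted p = 0.0247), 0.65 for Ms4a1 (adjusted p = 0.0115) and 0.48 for Cd79b (adjusted p = 0.0273). Cr2 differed by 0.29 ± 0.21, Cd79a by 0.25 ± 0.17, Spib by 0.17 ± 0.15, Fcer2a by -0.16 ± 0.17 and Pax5 by -0.30 ± 0.14, which turned to 0.29 after normexp background correction (adjusted p = 0.0103). This comparison shares its 2-month samples with the age comparison and its DT samples with the DT comparison, so the 3 are not independent.

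Of the other B cell genes, 3 rose and 1 fell here, with a median of 0.05. Ly6d (0.90 ± 0.16), the inhibitory receptor Cd72 (0.94 ± 0.24) and the receptor Tnfrsf13b (0.62 ± 0.18) rose, and the lineage factor Ebf1 fell (-0.60 ± 0.094). In the signalling list 10 of 20 rose and 0 fell, with a median of 0.27, led by Syk (0.44 ± 0.066), Vav1 (0.42 ± 0.068), the inhibitory Fc receptor Fcgr2b (0.83 ± 0.15) and Nfatc1 (0.34 ± 0.068). Plasma cell genes had 8 risers and 2 fallers of 10, and their summed signal was 14756 to 22233% with DT at 12 months against 6593 to 7154% at 2 months. Pan-leukocyte genes had 7 risers of 8, and lung parenchyma genes 4 risers and 4 fallers of 10. Whether these lists bear on the difference of Pou2af1 was not tested.

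The genotypes were compared in 3 ways. On slide 2, DT-treated ARF-DTR lungs had lower levels than wild type PBS lungs for Pax5 (-1.05 ± 0.17, adjusted p = 0.00843), Cd79b (-0.84 ± 0.20, adjusted p = 0.0292) and Fcer2a (-0.85 ± 0.20, adjusted p = 0.0307) by limma. That is 3 of 9 genes, where 5.55% of all genes were called in either direction. The median difference was -0.76 over the 9 genes and 0.00 over all genes. In 8 of the 9 genes every DT-treated ARF-DTR array was below both wild type PBS arrays, as for 17.9% of all genes, and Pou2af1, with 0.35 ± 0.29, was the exception. Genotype, DT and array row differ together in this comparison. The calls rest on 2 wild type samples: without wild type PBS replicate 1 none of the 9 genes passed, with Pax5 at -0.97 (adjusted p = 0.0798), Cd79b at -0.75 (adjusted p = 0.21) and Fcer2a at -0.65 (adjusted p = 0.272). Without wild type PBS replicate 2, Pax5 still passed, and Cd79b (adjusted p = 0.0973) and Fcer2a (adjusted p = 0.0666) did not. Cd79b also missed the threshold without DT replicate 4 (adjusted p = 0.0569), Fcer2a without DT replicate 2, 3 or 4 (adjusted p = 0.0539, 0.0563 and 0.0702), and Cd79a (-0.84, adjusted p = 0.0477) passed without DT replicate 1. Pax5 was not well above background on 2 of the 4 DT-treated arrays, and after normexp background correction it differed by -0.28 (adjusted p = 0.111). The second probes of Cr2 (-1.11 ± 0.29, adjusted p = 0.0447) and Cd79a (-0.64 ± 0.17, adjusted p = 0.0488) passed in a fit of all kept probes, where the probes used for these genes had -0.78 ± 0.25 and -0.76 ± 0.21 and did not.

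Of the 24 other B cell genes, 4 were lower in DT-treated ARF-DTR than in wild type PBS lungs and 0 higher, with a median of -0.38. They were Vpreb3 (-0.82 ± 0.15), Bcl11a (-0.82 ± 0.17), the IgM Fc receptor Fcmr (-0.996 ± 0.24) and Cxcr5 (-0.71 ± 0.19). In the signalling list 0 of 20 passed, with a median of -0.01, and in the plasma cell list 0 of 10, with a median of 0.52. The pan-leukocyte genes had 0 calls of 8, a median of 0.02 and summed signals of 11556 to 15247% in DT-treated ARF-DTR lungs against 14756 to 15622% in wild type PBS lungs.

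With DT in both genotypes, on slide 2 but in different array rows, 9 of the 9 genes had lower means in ARF-DTR lungs. By limma 0 passed, against 0.923% of all genes, while 5 had an unadjusted p under 0.05. Fcer2a came closest, with -0.75 ± 0.20 (adjusted p = 0.101), and its 4 ARF-DTR arrays lay below both wild type arrays. With PBS in both genotypes, across slides, Cd79b (-0.79 ± 0.20, adjusted p = 0.0129) and Pax5 (-0.70 ± 0.17, adjusted p = 0.0131) were lower in ARF-DTR lungs, 2 of 9 genes where 23.6% of all genes were called, which is near the background. Both calls were lost without wild type PBS replicate 1 (adjusted p = 0.111 for Cd79b and 0.107 for Pax5) and without wild type PBS replicate 2 (adjusted p = 0.0517 and 0.0554), and Fcer2a passed without ARF-DTR PBS replicate 3 (-0.69, adjusted p = 0.00697). The second probe of Cd79a passed (-0.52 ± 0.17, adjusted p = 0.0461), where the one used had -0.39 ± 0.21. The 3 genotype comparisons share samples.

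Within the groups the 9 genes varied together. After the mean of each group was subtracted, PBS replicate 2 lay below its group's mean in 9 of the 9 genes and DT replicate 2 likewise, wild type DT replicate 1 was below wild type DT replicate 2 in 9 of 9, and PBS replicate 3 was the highest of its group in 7. Over the 16 arrays the deviations of Cd79a correlated with the mean of the other 8 genes at r = 0.92, those of Cd79b at 0.90, Ms4a1 at 0.85, Blk at 0.82, Spib at 0.76, Cr2 at 0.74 and Pou2af1 at 0.72. Fcer2a, at 0.53, and the dim Pax5, at 0.48, followed the others least. The closest pair was Ms4a1 with Cd79b (r = 0.92) and the least alike was Pax5 with Spib (r = 0.17). The arrays share their slide and their scaling, and replicate 2 of both 12-month ARF-DTR groups lay in array column 2 of its slide. These values therefore describe the arrays and carry no test.

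Part of this rested on PBS replicates 2 and 3, whose mean deviations were -0.41 and 0.35. Without these arrays, over 14 arrays, r was 0.83 for Blk, 0.82 for Cd79a, 0.79 for Cd79b, 0.78 for Ms4a1, 0.67 for Spib and 0.61 for Cr2. It fell by more for Pou2af1, to 0.49, and for Pax5 and Fcer2a it was 0.23 and 0.13.

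**Figure D3:**
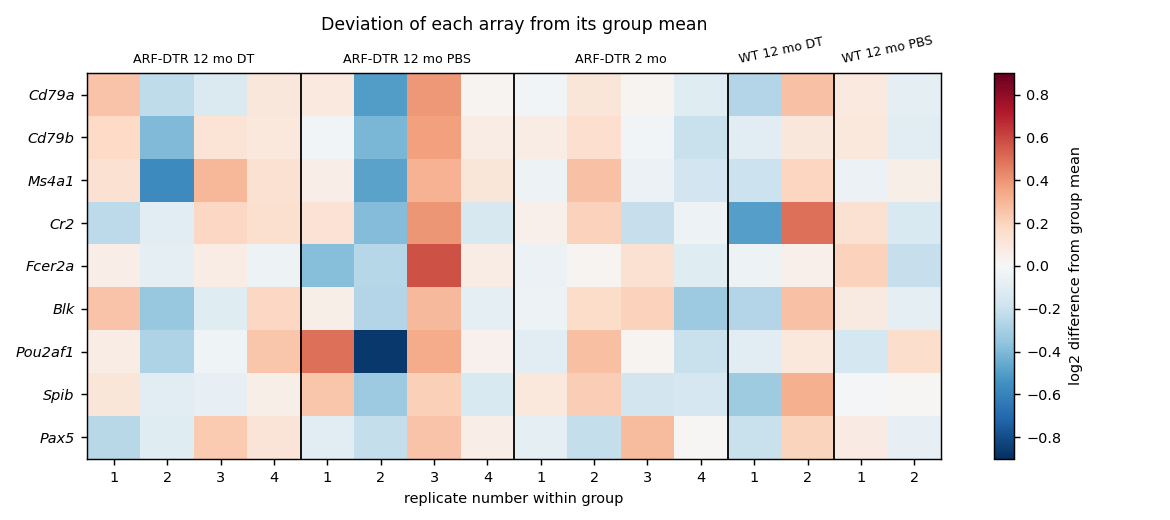
Log2 difference of each array from the mean of its group for the 9 genes, with 1 column per array and colour from blue (below the group mean) to red (above it). The columns of PBS replicate 2 and DT replicate 2 are blue in 9 of the 9 genes, and the darkest cell is Pou2af1 in PBS replicate 2.

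Among 25626 genes with a value on every array, those whose deviations were most like the mean of the 9 were taken by rank. Ly6d came first (r = 0.94), followed by the G protein-coupled receptor Gpr174, by Klhl6, which acts in B cell receptor signalling, and by the scaffold Bank1 (each r = 0.93). The Fc receptor-like gene Fcrl1 and the inhibitory receptor Btla had r = 0.91. Also near the top were X67198 (r = 0.91), JQ085280 (r = 0.90), H2-Oa, a chain of the class II chaperone H2-O (r = 0.89), the adaptor Stap1 and the receptor Gpr18 (each r = 0.89). X67198 and JQ085280 are sequence accessions to which the array files give no gene symbol. Without PBS replicates 2 and 3 the values of the genes named here ran from 0.77 for JQ085280 to 0.91 for Ly6d. In the age comparison Ly6d and JQ085280 (3.11 ± 0.45, adjusted p = 0.00149) rose, while Gpr174 differed by 0.20 ± 0.15 and Klhl6 by 0.12 ± 0.099, so a gene can follow the 9 genes from array to array within groups with no call for age.

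The lists differed in how closely they followed the 9 genes within groups. The median r was 0.75 for the 24 other B cell genes, 0.53 for pan-leukocyte genes, 0.49 for T cell genes, 0.48 for germinal centre and follicular dendritic cell genes, 0.37 for plasma cell genes and 0.32 for B cell receptor signalling genes. Lower values were 0.18 for lung parenchyma genes, 0.15 for plasmacytoid dendritic cell genes, 0.06 for B cell precursor genes and -0.01 for natural killer cell genes, with 0.03 over all genes. Without PBS replicates 2 and 3 the other B cell genes had a median of 0.48 and the T cell genes 0.60, so their order turned. Among B cell genes Cd37 had r = 0.82 and Ebf1 0.53, and among plasma cell genes Mzb1 had 0.62 and Jchain 0.37.

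**Figure D4:**
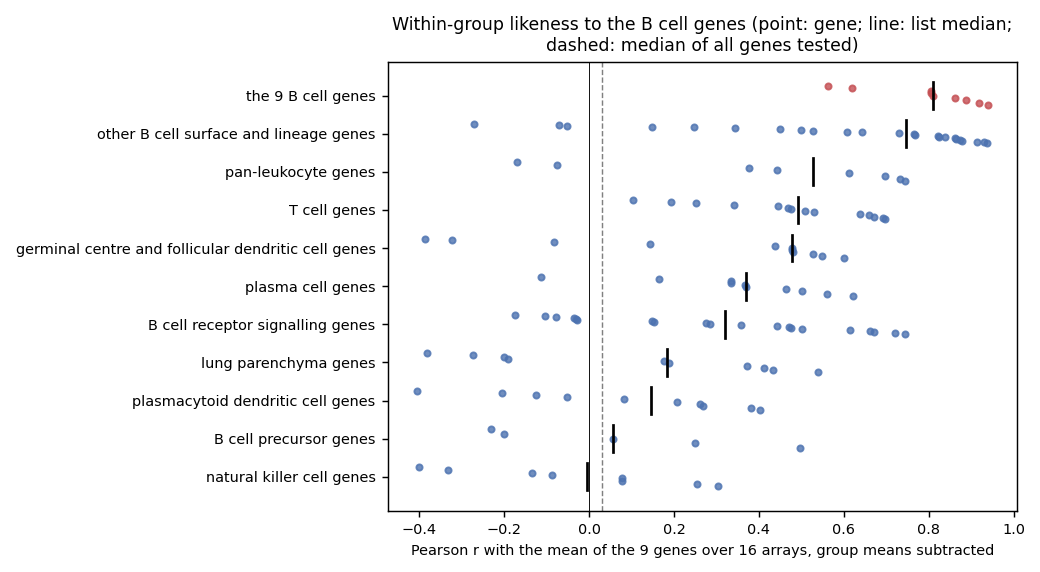
Pearson correlation, over 16 arrays with group means subtracted, of each listed gene with the mean of the 9 B cell genes, with 1 point per gene, a bar at the median of each list and a dashed line at the median of all genes, 0.03. The 9 genes are part of the mean they are set against, which raises their values (median 0.81), and the other B cell genes have the next highest median at 0.75.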

How the data were processed

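Total lung RNA was labelled with Cy3 and hybridised to 1-colour Agilent arrays, 1 per sample. The deposited scanner files hold intensity values per spot, background-subtracted per the file headers, and flags for brightness and outliers. Agilent Feature Extraction 10.10.1.1 is named in the submitters' processing notes. The authors' deposited log2 values per array, which matched log2 intensity minus the array's 75th percentile, served as an alternative.

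Here, control and outlier spots were left out, spots of a probe averaged, and the 75th percentile of each array subtracted on the log2 scale. No spot was saturated (0 of 59305 on any array). Probes well above background on at least 4 of 16 arrays were kept, and the brightest stood for its gene, which gave 25675 genes. Gene names came from the files, updated by accession. The test was that of limma 3.58.1 (R 4.3.3, jsonlite 2.0.0, and version 1.17.8 of data.table), with 1 mean per group and all arrays in 1 fit, two-sided, at an adjusted p under 0.05 over all genes. Simulated data with known changes were used to check it. Promoters and figures used Python 3.11.15, pandas 2.3.3 and matplotlib 3.10.9.

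Groups came from titles, which source names and treatments match. No slide or array row term could enter the fit, as every group lay in a single row of a single slide. The genes, the lists and their tests were chosen with earlier results of these data known. Named genes were the 9, up to 4 passing genes per list (Pou2f2, Lyn, Siglech, the B cell genes below 0 with age and genes named for r in other lists were added after their values were seen) and the 12 most alike within groups; some genes that the rule takes are not reported here. The arrays' number limits the precision.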

Additional observations from a re-analysis of the deposited data

Results flagged for a closer look

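Cd79b in DT-treated ARF-DTR replicate 2 had a log2 level of 3.46, while the other 3 samples of the group lay between 3.96 and 4.04. Its gap to the nearest of them is 0.86 of the group's whole range, which is past Dixon's critical value for 4 samples. The same array was the lowest of its group in 7 of the 9 genes. Of 27 sets of 4 samples examined, 9 genes in each of the ARF-DTR groups, 1 was past the value, and chance gives about 1 in 20.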

How the results depend on the processing

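For 12-month PBS against 2-month lungs, 3 genes passed, with 5 after quantile normalization and 6 with array weights. After normexp background correction and with the filter at 8 of 16 arrays 4 passed. After median scaling, with no filter on dim probes and with the replicate number as a block 2 passed. With only these groups in the fit 1 passed (Spib, with Pou2af1 at adjusted p = 0.0532), and 2 to 6 did without single replicates. Blk lost its call in 11 of these 18 settings. For DT against PBS in ARF-DTR lungs, 1 passed, with 2 after normexp background correction, with array weights and with the replicate number as a block, and 1 to 2 without single replicates. For DT-treated against 2-month lungs, 1 passed, with 3 after normexp, 2 after median scaling, after quantile normalization and with the replicate block, 4 with array weights, and 1 to 4 without single replicates. For the genotypes with PBS, 2 passed, with 3 after normexp, after median scaling and with the replicate block. In a fit of these groups only 1 passed (Cd79b was at adjusted p = 0.0543), and 0 to 3 did without single replicates. For the genotypes with DT, 0 passed, with 1 when no dim probe was filtered (Fcer2a) and 0 without single replicates. For DT-treated ARF-DTR against wild type PBS lungs, 3 passed, with 2 to 4 in other settings (2 in a fit of these groups only, Cd79b at adjusted p = 0.0724) and 0 to 4 without single replicates. For DT in wild type lungs and the interaction, 0 passed in every setting tried. The replicate block also moved Pax5 past the threshold in the first DT comparison (-0.35) and against 2 months (-0.30). Same-numbered samples were not paired by the labels, and 7 of 26 such pairs had deviations correlated over 0.1 (range -0.20 to 0.33), with the own number best in 10 of 24 cases. In the ARF-DTR groups the replicate number equals the array column, so there the block cannot tell a pairing of samples from a column.

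Directions turned for small differences. The age difference of Pax5 was -0.046 after median scaling, -0.083 after quantile normalization and -0.041 to 0.14 without single replicates, below 0 without 2-month replicate 2 or PBS replicate 3. After normexp, Pax5 differed by 0.27 with DT against PBS (adjusted p = 0.0156) and by 0.29 with DT against 2 months (adjusted p = 0.0103), where its other settings were below 0. With DT in ARF-DTR lungs, Cd79b differed by 0.13 after median scaling and by -0.19 to 0.086 without single replicates, above 0 without PBS replicate 3 or DT replicate 2, and Pou2af1 by -0.011 (without PBS replicate 2) to 0.44. In wild type lungs with DT, the range without single replicates was -0.64 to 0.35 for Cr2 and -0.42 to 0.22 for Spib, both above 0 without DT replicate 1, and -0.30 to 0.11 for Fcer2a, above 0 without PBS replicate 1. Between genotypes with PBS, Pou2af1 was at -0.018 after median scaling and at -0.090 to 0.36 without single replicates, below 0 without ARF-DTR PBS replicate 1 or 3 or wild type PBS replicate 1. With DT, Spib ran from -0.55 to 0.087, above 0 without wild type DT replicate 2. The cause of these moves was not tested.

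Counts of all genes that passed moved too. They were 927 to 2218 for age (1578 as reported), 5386 to 10456 for DT in ARF-DTR (7508), 0 to 233 for DT in wild type (46), 227 to 2024 for the interaction (541), 6045 to 10358 against 2 months (7879), 2324 to 7933 for the genotypes with PBS (6059), 6 to 3578 with DT (237) and 205 to 2507 for DT-treated ARF-DTR against wild type PBS (1426). Dim signal limits Pax5, and 2 arrays a group limit the wild type comparisons.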

Other observations

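Genes of other lymphocytes did not share 1 direction at 12 months. Of 8 natural killer cell genes, 4 fell and 0 rose with age in ARF-DTR lungs (limma), with a median log2 difference of -0.72, among them the receptor Ncr1 (-1.05 ± 0.23, adjusted p = 0.0188) and Klra8 (-1.15 ± 0.28, adjusted p = 0.0266). Their summed signal was 873 to 2110% of the array's 75th percentile with PBS at 12 months and 1895 to 3129% at 2 months, so the groups overlapped. Of 14 T cell genes, 1 rose, the adaptor Lat (0.88 ± 0.12, adjusted p = 0.000862), and 0 fell, with a median of 0.20. The 5 tested of 8 B cell precursor genes had 0 calls and a median of -0.08.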
